A study of Homo sapiens with 18 samples.

Results

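The response to hepatocyte growth factor (HGF) was compared between Detroit 562 and FaDu, both established lines of head and neck squamous cell carcinoma. FaDu derives from a primary tumor of the hypopharynx and Detroit 562 from a metastasis of a pharyngeal carcinoma. The comparison used 12 of the 18 mRNA sequencing libraries of the series, 3 of untreated cells and 3 of cells given 50 ng/mL HGF in each line, and the remaining 6 libraries, of SCC-9, entered the fit to estimate the spread. Both lines were grown in MEM-α, were detached with trypsin before RNA isolation, and carried no genetic change made for the study. The sample records give 16 h of treatment, whereas the series record gives 48 h. Each of these is a single line, so that whatever differs between their genomes, their origin or their culture cannot be told apart from the line itself.

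HGF is a growth factor secreted by stromal cells that binds and activates the receptor tyrosine kinase MET on epithelial cells. Activated MET recruits the adaptors GRB2 and GAB1 and switches on the RAS-ERK and PI3K cascades, which change transcription within hours. In squamous epithelia this signal is known for loosening cell contacts, for migration and invasion, and for proliferation, and it is limited by feedback phosphatases and Sprouty proteins that its own target genes encode. A difference in response means here the log2 fold change of HGF against control in Detroit 562 minus that in FaDu. A positive value stands for a higher response in Detroit 562, be it a stronger rise or a weaker fall. Where 2 log2 values are given for a gene, the first is the fold change in Detroit 562 and the second that in FaDu, and the words rose and fell are kept for changes that passed the threshold within the line.

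Library totals ranged from 35304770 to 44003970 counts, and the totals of control and HGF libraries overlapped in both lines. KRT5, TP63 and the 6 other markers of squamous epithelial cells were present in all 12 libraries, with a summed level of 90555 to 179832 normalized counts in Detroit 562 and 235152 to 481654 in FaDu. KRT14 was low in Detroit 562, at 34.1 to 57.2 normalized counts, against 8216 to 21290 in FaDu. Among markers of white blood cells, PTPRC, CD3E and LYZ did not exceed 8.4 in any library, and CD68 accounted for nearly all of the summed 685 to 2247. Markers of fibroblasts summed to 1190 to 2171 in control and 599 to 1103 in HGF-treated Detroit 562 and to 136 to 271 in FaDu, with DCN and LUM at or near 0, and those of endothelial cells summed to 19 to 333. Less RNA per cell and fewer cells of a kind cannot be told apart in bulk libraries.

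HGF changed the mRNA level of more genes, and by more, in Detroit 562 than in FaDu. At an adjusted p below 0.1, the response differed between the lines for 2956 of 15475 genes tested (19.1%). It was higher in Detroit 562 for 1566 genes (10.1%) and lower for 1390 (8.98%). Of the 2956 genes, 2728 (92.3%) had the larger fold change, in absolute size, in Detroit 562. The median absolute difference was 0.348 on the log2 scale. It was under 0.4 for 1733 genes and at least 1 for 278.

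These calls rest on comparing each HGF library with the control library of the same replicate number. Without that block, 37 genes passed (0.239%), 16 higher and 21 lower in Detroit 562, all of them among the 2956, and all 2956 kept their sign. At an unadjusted p below 0.05, 4362 genes passed with the block and 1788 without it. Same-numbered log2 ratios of the lines did not overlap, 3 against 3, for 2672 of the called genes (90.4%), against 28.7% of all genes tested. The calls come from these same pairs, so that this share adds nothing to them.

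Called within a line (adjusted p below 0.1 and a fold change of at least 0.4 on the log2 scale) were 3327 genes in Detroit 562 (21.5%), of which 1104 rose (7.13%) and 2223 fell (14.4%). In FaDu, 867 genes were called (5.6%), with 310 up (2%) and 557 down (3.6%). Without the block these counts were 2766 in Detroit 562 and 4 in FaDu. Both lines called 606 genes, which is 69.9% of the FaDu genes and 18.2% of those of Detroit 562, and 595 of them moved in the same direction. For 487 of these 595 the change was larger in Detroit 562, with a median size of 0.936 against 0.621 in FaDu. Across 12042 genes with a mean of at least 50 normalized counts in a group of each line, the fold changes of the lines correlated (Pearson's r 0.706, Spearman's coefficient 0.669), and their SD was 0.379 in Detroit 562 and 0.208 in FaDu. Genes are not independent replicates, and this correlation is a description.

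The called differences fell into 6 classes. The largest held 1386 genes called in Detroit 562 and not in FaDu, 585 of which rose and 801 of which fell. Another 179 were called in both lines in the same direction and were larger in Detroit 562, 45 up and 134 down. FaDu alone called 84 genes, 56 up and 28 down, and 3 genes were called in both lines with the larger change in FaDu. Opposite changes, called in both lines, were found for 11 genes. The other 1293 genes had a called difference although neither line passed its own threshold, and 902 of them were higher in Detroit 562. The median absolute difference of the 1293 genes was 0.254.

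**Figure D1:**
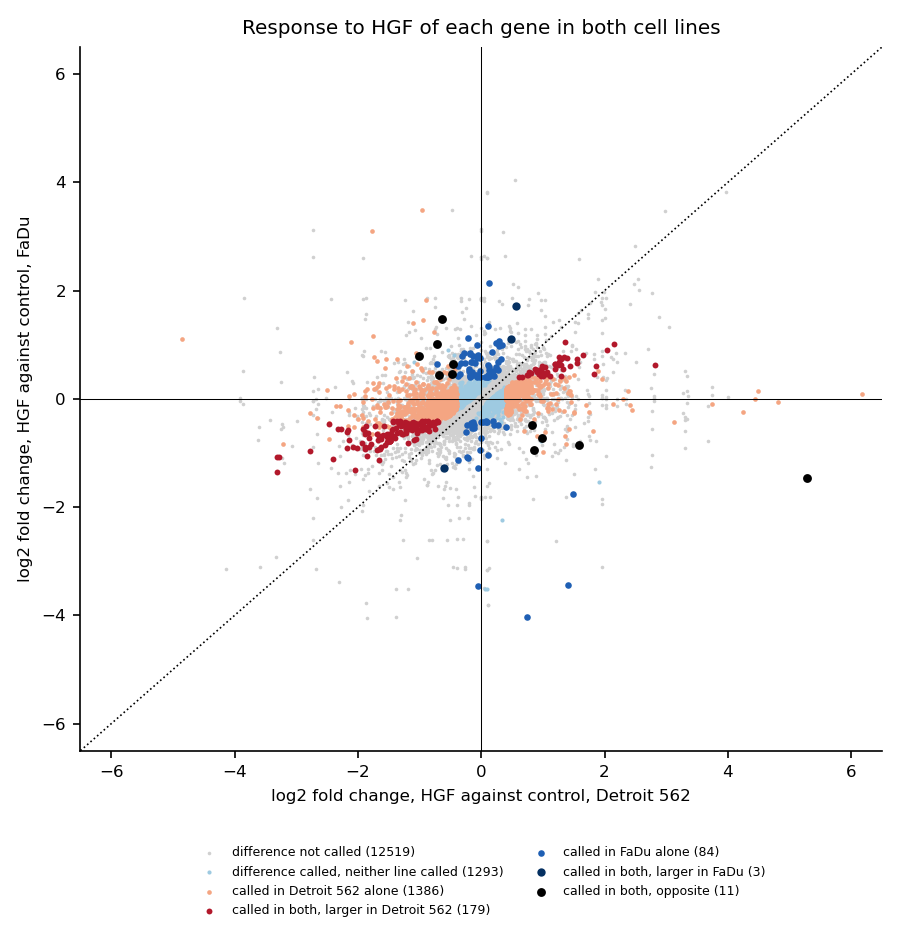
Each point is 1 of 15475 genes, with its log2 fold change of HGF against control in Detroit 562 on the horizontal and in FaDu on the vertical axis, colored by class of called difference. The cloud is flatter than the dotted line of equal response, and the SD of the fold changes was 0.379 in Detroit 562 and 0.208 in FaDu among well measured genes. The 11 genes with opposite called changes lie in the upper left and lower right.

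Opposite responses were taken first. Of the 11 genes, the 6 that had at least 50 normalized counts on average in a group of each line were STC1, PLEKHG4B, NANOS1, CXCL1, SERPINA1 and AHNAK2. The other 5 were CFAP74, ESAM, FGF1, MTUS2 and SCARF2, with fewer counts in at least one line. For each of the 6 the same-numbered ratios of the lines did not overlap, which was a condition for naming a gene. With ratios apart, the exact permutation test of 3 against 3 ratios always gives p = 0.1, its smallest value. Neither therefore adds to the call.

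CXCL1, a chemokine that attracts neutrophils (ENSG00000163739.4, chr4:73869393-73871242), fell in Detroit 562 and rose in FaDu. Control libraries of Detroit 562 held 2656, 2168 and 1525 normalized counts and HGF libraries 1745, 1321 and 905. The corresponding FaDu values were 324, 344 and 187 without and 437, 431 and 286 with HGF. Every pair fell in Detroit 562 and every pair rose in FaDu, and FaDu stayed below Detroit 562 throughout. The log2 fold change was -0.69 (SE 0.067) and 0.44 (SE 0.086), a difference of -1.13 (SE 0.11, adjusted p = 6.4e-05).

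STC1, which encodes the secreted glycoprotein stanniocalcin 1, went from 129, 126 and 106 to 85.1, 77.2 and 70.6 in Detroit 562. FaDu went from 25.6, 147 and 48.8 to 154, 202 and 214. The controls of FaDu scattered widely, yet each of its pairs rose. The fold changes were -0.63 and 1.48 on the log2 scale, with a difference of -2.11 (SE 0.38, adjusted p = 0.0034). SERPINA1, which encodes the protease inhibitor alpha-1-antitrypsin (chr14:94376747-94390693), had 98.0, 70.6 and 87.2 normalized counts in control and 69.3, 64.7 and 52.3 in HGF-treated Detroit 562. In FaDu it had 80.7, 155 and 157 without and 115, 257 and 247 with HGF. All 3 FaDu pairs rose and all 3 Detroit 562 pairs fell, the second of these by the least, and the difference was -1.11 (SE 0.16, adjusted p = 0.00087).

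PLEKHG4B (chr5:92151-189972), a guanine nucleotide exchange factor of small GTPases, was high in Detroit 562 and low in FaDu. Its level dropped from 8950, 7708 and 5456 to 3879, 4135 and 2928 in the former and went from 25.6, 30.1 and 49.8 to 50.1, 45.2 and 86.1 in the latter. The difference was -1.79 (SE 0.22, adjusted p = 0.00028). The large scaffold protein gene AHNAK2 (chr14:104937244-104978357) also differed in level, with 7198, 5855 and 6917 in control and 4439, 4783 and 5184 in HGF-treated Detroit 562. FaDu read 363, 872 and 328 and then 308, 1294 and 621. Here the first FaDu pair fell while the other two rose, and the call rested on the fitted effect in FaDu of 0.46 (adjusted p = 0.085), just inside the threshold.

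NANOS1, an RNA-binding translational repressor (chr10:119029716-119033732), was the one gene of the 6 that rose in Detroit 562. Its counts went from 70.7, 70.6 and 81.8 to 138, 125 and 131 there and from 153, 128 and 120.2 to 109, 106 and 72.5 in FaDu. HGF-treated Detroit 562 thus lay in the range of untreated FaDu. The difference of 1.31 (SE 0.18, adjusted p = 0.00053) also passed without the replicate block, unlike that of the other 5.

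**Figure D2:**
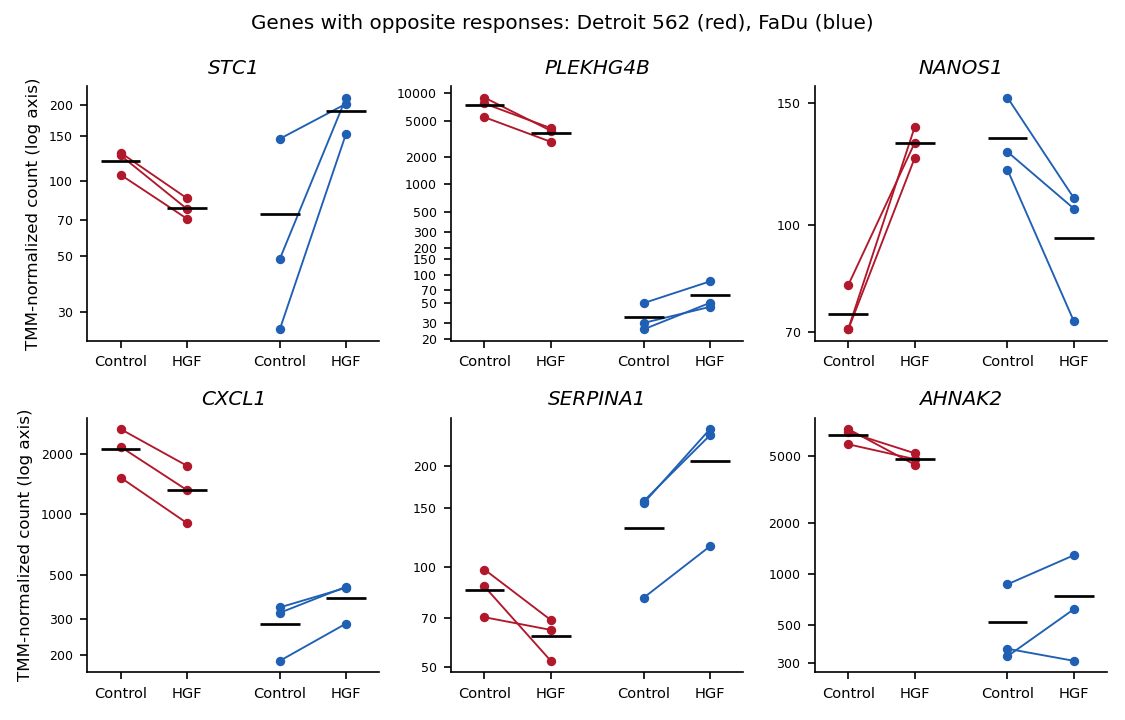
TMM-normalized counts on a log axis for the 6 genes with opposite called changes, 3 control and 3 HGF libraries per line, with lines joining libraries of the same number and black bars at the group means. Detroit 562 is red and FaDu blue. CXCL1, STC1, SERPINA1, PLEKHG4B and AHNAK2 drop in Detroit 562 and NANOS1 climbs from 70.7, 70.6 and 81.8 to 138, 125 and 131. The first AHNAK2 pair of FaDu, from 363 to 308, goes against its group.

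The number of genes with opposite responses was sensitive to the method. It was 0 without the replicate block, 5 with DESeq2, and between 5 and 19 when a replicate was left out, and 60 genes had opposite signs when no minimum fold change was set.

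No difference in response was called for the HGF receptor itself. MET (chr7:116672390-116798386) held 30966, 30755 and 33468 normalized counts in control and 31421, 34103 and 40379 in HGF-treated Detroit 562, against 5779, 5557 and 6443 without and 6138, 6211 and 7865 with HGF in FaDu. Untreated Detroit 562 thus had 31730 ± 1509 (SD, n = 3) and untreated FaDu 5926 ± 461, without overlap. The fold change after HGF was 0.15 and 0.18, with a difference of -0.032 (SE 0.072, adjusted p = 0.82), and its sign turned when Detroit 562 replicate 1 or FaDu replicate 3 was left out. HGF mRNA did not pass the filter on low counts.

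Of 18 tested genes of the MET axis, 4 responded higher and 4 lower in Detroit 562 (44.4% of the list, against 19.1% of all genes, 10.1% higher and 8.98% lower). The 4 higher became 2 without FaDu replicate 2. Without the block, 37 genes were called in all, and of the pathway lists described here and below only MMP1 and GJB2 were among them. NRP1, a coreceptor of semaphorins and growth factors, had 3310, 3509 and 3317 in control and 2895, 3105 and 3484 in HGF-treated Detroit 562, where no change was called, and rose in FaDu from 569.7, 672 and 826 to 939, 937 and 1435, a difference of -0.77 (SE 0.11, adjusted p = 0.00084). The semaphorin receptor PLXNB1, a partner of MET, fell by 0.72 in Detroit 562 and read -0.14 in FaDu. SPINT1, an inhibitor of the proteases that activate the HGF precursor, had fold changes of -0.35 and -0.056. ST14, which encodes such a protease, had -0.40 and -0.14. The adaptor GRB2, which links MET to RAS, had 0.28 and -0.043. The urokinase receptor PLAUR rose in both lines, by 1.20 in Detroit 562 and 0.65 in FaDu, and its ligand PLAU rose by 0.41 in Detroit 562 with 0.054 in FaDu. The PLAUR difference was not called when FaDu replicate 2 was left out, and that of PLAU was not called under 4 of the 6 omissions.

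Of 23 tested feedback genes and targets of the ERK cascade, 16 were called up and 1 down in Detroit 562, where 7.13% of all genes went up, and 11 were called up in FaDu, where 2% did. The difference was called for 6, 5 higher and 1 lower in Detroit 562, a share of 26.1% against 19.1% of all genes. The 5 higher became 2 without Detroit 562 replicate 1 or FaDu replicate 2. DUSP6, the phosphatase of ERK, went from 239, 217 and 226 to 708, 524 and 741 normalized counts in Detroit 562 and from 305, 365 and 443 to 907, 742 and 1377 in FaDu. The fold changes were 1.52 and 1.42, and the ratios of the lines overlapped (difference 0.10, SE 0.16, adjusted p = 0.73). The Sprouty gene SPRY4 changed by 1.94 and 1.80, PHLDA1 by 1.57 and 1.58, and the ETS factor ETV4 by 0.80 and 0.84, again without a called difference. Failing the test does not show that these responses were equal.

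The feedback genes that did differ included SPRED3, an inhibitor of RAF activation. It went from 14.1, 11.9 and 25.9 to 71.2, 56.8 and 71.8 in Detroit 562 and from 19.0, 31.1 and 26.3 to 25.0, 29.2 and 44.5 in FaDu, a difference of 1.60 (SE 0.37, adjusted p = 0.013). DUSP5, a nuclear phosphatase of ERK, climbed in Detroit 562 from 512, 697 and 888 to 992, 855 and 1930. In FaDu it held 1406, 1390 and 1210 before and 1335, 1606 and 1074 after HGF, with the second pair up and the other pairs down, and the difference was 0.81 (SE 0.17, adjusted p = 0.008). The early response gene IER3 stood out on the other side, with a larger rise in FaDu (513, 535 and 674 to 1258, 969 and 1501) than in Detroit 562 (2594, 2215 and 2788 to 3857, 2570 and 4407), and a difference of -0.62 (SE 0.12, adjusted p = 0.0043).

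Among 23 tested AP-1 and immediate early genes, 3 responded higher and 4 lower in Detroit 562, where 10.1% and 8.98% of all genes did. The counts moved to 7 higher without Detroit 562 replicate 2 and to 9 lower without replicate 3. FOSL1, the AP-1 subunit that ERK signaling stabilizes, rose in Detroit 562 from 4020, 5899 and 11622 to 19168, 16079 and 27998 and in FaDu from 4577, 4955 and 8207 to 9654, 7595 and 13655. All 6 pairs rose, and those of Detroit 562 rose more (difference 0.84, SE 0.20, adjusted p = 0.015; 0.55 without Detroit 562 replicate 1). MYC, the growth regulator, had 0.43 and 0.16. FOS, FOSB, EGR1 and JUNB, which respond within minutes to a stimulus, fell in Detroit 562 and were not called in FaDu. FOS fell from 10487, 374 and 1257 to 3959, 146 and 203, whereas FaDu read 9385, 1016 and 1336 without and 6433, 1026 and 916 with HGF. Replicate 1 of every group held several times more FOS than replicates 2 and 3, treated or not, and the ratios of FOS did not overlap between the lines while those of FOSB did. With each replicate of each line left out in turn, the difference ran from -1.75 to -1.01 for FOS, from -1.71 to -1.13 for FOSB and from -1.32 to -0.83 for EGR1, and each was called in 6 of 6 such fits.

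Receptors and ligands of the EGF and FGF systems, which act beside MET in epithelial cells, differed for 9 of 20 genes, 3 higher and 6 lower in Detroit 562 (45%, against 19.1% of all genes). FGFR1 rose in Detroit 562 from 203, 196 and 291 to 528, 435 and 792 and held 66.5, 93.4 and 93.9 without and 88.1, 83.5 and 120 with HGF in FaDu, with a difference of 1.13 (SE 0.19, adjusted p = 0.0025). FGFR3 fell in both lines, from 9462, 8526 and 4661 to 4512, 4036 and 1749 and from 4796, 4244 and 2645 to 2503, 2801 and 1408. Its fall was larger in Detroit 562 by 0.37 (SE 0.10, adjusted p = 0.035), a call lost without FaDu replicate 2. The receptors FGFR2 (-0.82 and -0.34), ERBB2 (-0.55 and -0.21) and ERBB3 (-0.54 and -0.27) fell in Detroit 562 and stayed within the fold threshold in FaDu. Of the EGF receptor ligands, HBEGF rose by 1.55 in Detroit 562 against 0.65 in FaDu and TGFA by 0.97 against 0.55. Neuregulin 1 (NRG1), a ligand of ERBB3, rose by 0.74 in FaDu and read 0.32 in Detroit 562.

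Genes with a mean of at least 50 normalized counts in a group of each line were ranked by their difference. A gene can pass this minimum only through the group where it is high. SLC26A7, HOXB9, RNASE7 and RTN2 did so in Detroit 562 with HGF, and PLEKHG4B in FaDu with HGF. ADH1B, ADH1C, PRODH and CYP2W1 did so in untreated FaDu. The rank of all these genes depends in part on the change itself. Of the genes with the larger rise in Detroit 562, SLC26A7, an anion exchanger, went from 6.60, 8.69 and 12.9 to 42.5, 31.8 and 77.9 there, with 60.8, 51.2 and 63.8 without and 47.3, 51.3 and 63.9 with HGF in FaDu. The gene was rare in untreated Detroit 562, with a mean of 9.40 against 50.7 with HGF, and HGF-treated Detroit 562 overlapped the range of FaDu with and without HGF (difference 2.53, SE 0.33, adjusted p = 0.00045). SLC26A7 overlaps LRRC69 on the same strand, and reads in the overlap counted for both. HOXB9, a homeobox gene that overlaps HOXB7, rose from 20.7, 21.7 and 25.9 to 64.3, 50.0 and 73.0 in Detroit 562 and stayed above that in FaDu, at 116, 182 and 206 without and 129, 178 and 219 with HGF. The antimicrobial ribonuclease RNASE7 and the sulfotransferase CHST11 rose by 1.43 and 1.14 in Detroit 562 and read 0.086 and -0.18 in FaDu. For CHST11, too, the FaDu libraries lay above both groups of Detroit 562, with 1490 normalized counts on average in control FaDu against 285 in control and 626 in HGF-treated Detroit 562.

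MMP1, the interstitial collagenase (chr11:102789920-102798160), rose in both lines and far more in Detroit 562. Controls of Detroit 562 held 6114, 5453 and 10985 normalized counts and HGF libraries 40231, 33675 and 95605. In FaDu the values were 474, 729 and 423 without and 881, 866 and 728 with HGF. The log2 fold changes were 2.82 (SE 0.10) and 0.63 (SE 0.12), and the difference of 2.19 (SE 0.15, adjusted p = 6.7e-06) passed with and without the block.

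Other genes of matrix degradation and the plasminogen system went separate ways, 3 of 22 higher and 5 lower in Detroit 562 (36.4%, against 19.1% of all genes), with 5 higher without Detroit 562 replicate 3 and 2 higher and 3 lower without FaDu replicate 3. MMP13, another collagenase, fell by 1.69 in Detroit 562 and by 0.66 in FaDu, against the direction of MMP1. The gelatinase MMP9 was low in both lines and rose in FaDu, from 13.3, 7.03 and 14.1 to 50.1, 12.1 and 95.8, with 12.2, 16.3 and 9.69 without and 14.8, 19.3 and 7.30 with HGF in Detroit 562 (difference -2.02, SE 0.46, adjusted p = 0.012). SERPINB2, an inhibitor of urokinase, had 818, 606 and 425 without and 245, 261 and 461 with HGF in Detroit 562, where pairs 1 and 2 fell and pair 3 did not, and 12.3, 14.1 and 14.1 without and 26.0, 11.1 and 75.5 with HGF in FaDu. Its difference of -2.40 (adjusted p = 0.041) was -1.46 and not called without FaDu replicate 3, its ratios overlapped between the lines, and its reads cannot be parted from those of SERPINB10, which overlaps it.

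**Figure D3:**
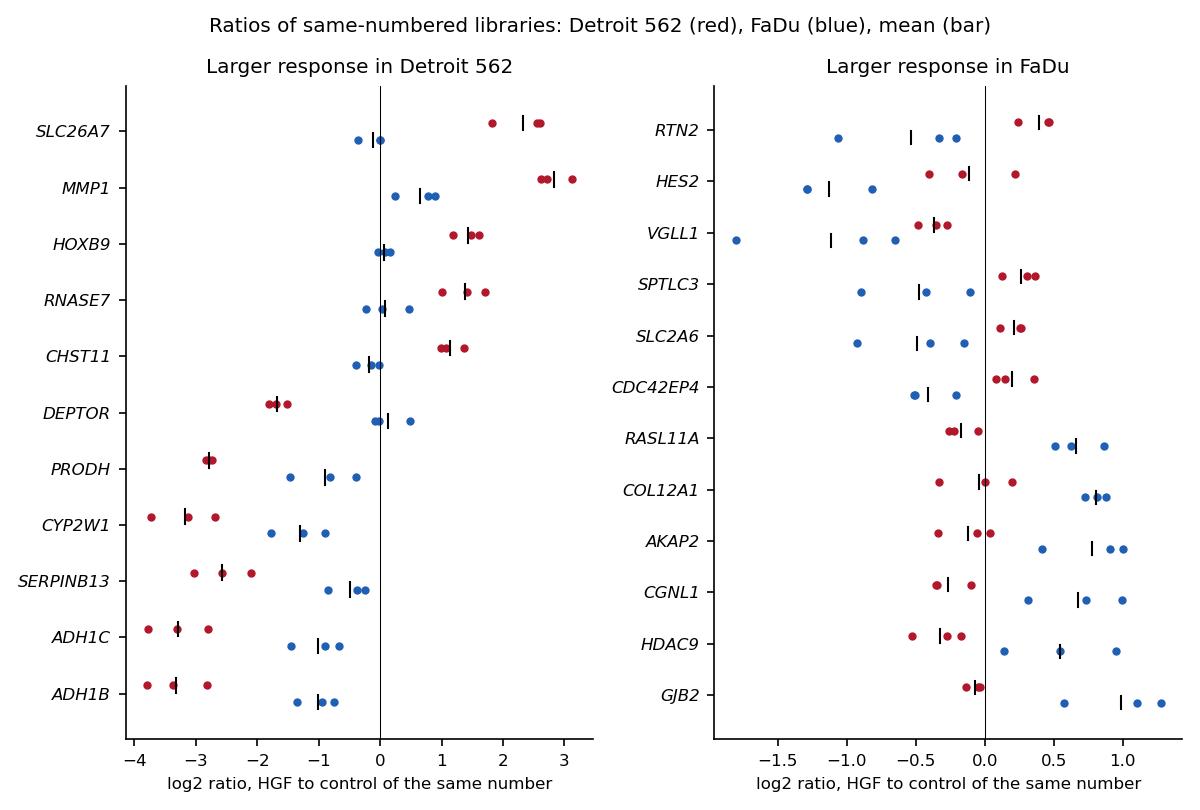
Log2 ratios of HGF to control libraries of the same replicate number for the genes with the largest called differences, 3 points per line (Detroit 562 red, FaDu blue) with a bar at the mean. In the left panel, MMP1 spans 2.63 to 3.12 in Detroit 562 and 0.25 to 0.89 in FaDu, and every ADH1B ratio of Detroit 562 lies below those of FaDu (-3.80, -2.82 and -3.37 against -1.35, -0.94 and -0.75). In the right panel, GJB2, COL12A1 and AKAP2 sit near 0 in Detroit 562 and are raised in FaDu.

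Genes with the larger fall in Detroit 562 were led by ADH1B and ADH1C, class I alcohol dehydrogenases that also oxidize retinol. ADH1B went from 2387, 2024 and 646 to 171, 287 and 62.1 normalized counts in Detroit 562. FaDu had 83.6, 85.4 and 32.9 in control and 32.5, 44.2 and 19.4 with HGF. All 6 pairs fell, with log2 fold changes of -3.31 (SE 0.14) in Detroit 562 and -1.07 (SE 0.25) in FaDu, a difference of -2.24 (SE 0.31, adjusted p = 0.00066). The counts of ADH1C ran parallel and its difference was -2.21, but the annotated extents of the pair overlap (chr4:99304964-99352760 and chr4:99336492-99353027), so that reads in common were counted for both. ADH7 fell in Detroit 562 from 69.8, 43.5 and 22.6 to 4.95, 2.27 and 0. In FaDu it was at 0 in 5 of 6 libraries, and no difference could be called (adjusted p = 0.78).

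SERPINB13, a protease inhibitor of squamous epithelium, dropped from 1281, 933 and 382 to 214, 217 and 46.2 in Detroit 562 and from 531, 1493 and 609 to 409.8, 1261 and 337 in FaDu. PRODH, the first enzyme of proline degradation, dropped from 913, 764 and 362 to 137, 107 and 52.3 in Detroit 562, with log2 ratios of -2.74, -2.83 and -2.78, and from 77.9, 71.3 and 31.9 to 27.8, 40.2 and 24.2 in FaDu. The cytochrome P450 gene CYP2W1 fell by 3.32 and 1.34. DEPTOR, an inhibitor of the kinase mTOR, fell in Detroit 562 from 386, 366 and 266 to 119, 128 and 75.4. FaDu held 66.5, 72.3 and 56.3 without and 65.8, 68.4 and 79.3 with HGF. These FaDu groups averaged 65.0 and 71.2, against 107.5 in HGF-treated Detroit 562. The difference of -1.80 (SE 0.19, adjusted p = 9.9e-05) also passed without the block.

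Retinoid and alcohol metabolism differed for 12 of 26 tested genes, all lower in Detroit 562 (46.2%, against 8.98% of all genes in this direction). Without Detroit 562 replicate 3, 13 were lower and 2 higher, and without the block 0 were called. The median fold change of the list was -0.865 in Detroit 562 and -0.285 in FaDu, where the medians of all genes were -0.00805 and -0.00608. Besides the dehydrogenases, the retinoic acid receptor RARB fell in Detroit 562 from 57.5, 48.9 and 39.9 to 10.9, 12.5 and 13.4 and held 98.8, 104 and 85.4 without and 80.7, 90.5 and 54.2 with HGF in FaDu (difference -1.63, SE 0.33, adjusted p = 0.0063). RARRES3, a retinoic acid responsive gene, had -1.58 and -0.49. The retinaldehyde dehydrogenase ALDH1A3 (-0.61 and -0.028), the retinal reductase DHRS3 (-0.79 and -0.10) and the receptor RARG (-0.70 and -0.20) fell in Detroit 562 and were not called in FaDu. STRA6, the cellular retinol importer, fell by 0.94 in Detroit 562, while FaDu had no more than 14.4 counts on average. CYP26B1 and DHRS9, which went up in Detroit 562 by 0.60 and 0.65, showed no called difference.

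Targets of NRF2 and the aryl hydrocarbon receptor (AHR), which detoxify electrophiles and xenobiotics, differed for 17 of 34 genes, 15 lower and 2 higher in Detroit 562 (50%, against 19.1% of all genes), and for 0 without the block. The number lower was 12 to 16 and the number higher 0 to 2 when a replicate was left out. The list was called down for 22 genes in Detroit 562 and for 15 in FaDu, with median fold changes of -0.495 and -0.345. AKR1B10, an aldo-keto reductase, fell from 5643, 4948 and 1278 to 1479, 1501 and 304 in Detroit 562 and from 254, 230 and 77.9 to 107, 167 and 31.0 in FaDu. Its difference was -0.97 (SE 0.18, adjusted p = 0.0044) and -0.61 without FaDu replicate 2. Its relatives AKR1C1 (-1.48 and -0.75) and AKR1C2 (-1.54 and -0.70) also fell in both lines, and their near-identical sequences may share reads. GCLC, the catalytic subunit of glutamate-cysteine ligase, had -1.08 and -0.46. UGT1A1, one of the nested UGT1A genes that share reads, fell by 1.51 and 0.77. The regulators NFE2L2, which encodes NRF2, and AHR fell by 0.47 and 0.52 in Detroit 562 and read -0.12 and -0.028 in FaDu. TXNRD1 (0.037 and -0.16) and GSTM3 (-0.0053 and -0.72) were the exceptions.

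Genes with the larger response in FaDu were fewer. GJB2, which encodes the gap junction protein connexin 26 (chr13:20187463-20193010), rose in FaDu, from 140.5, 188 and 147 to 303, 281 and 358 normalized counts. Detroit 562 stayed at 1766, 1625 and 1330 without and 1610, 1586 and 1283 with HGF. The groups overlapped in Detroit 562 and were apart in FaDu, and the difference was -1.06 (SE 0.14, adjusted p = 0.00036), called with and without the block. COL12A1, a fibril-associated collagen, rose in FaDu from 2353, 3663 and 4974 to 4129, 6058 and 9153 and remained at 2785, 2289 and 1890 without and 2215, 2292 and 2171 with HGF in Detroit 562 (difference -0.85, SE 0.11, adjusted p = 0.00045). The histone deacetylase HDAC9, the junction protein CGNL1, the kinase anchor AKAP2 and the small GTPase RASL11A rose by 0.67, 0.65, 0.79 and 0.68 in FaDu and read -0.33, -0.27, -0.13 and -0.17 in Detroit 562. AKAP2 overlaps the readthrough gene PALM2-AKAP2.

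Genes that fell in FaDu and were not called in Detroit 562 were led by RTN2, HES2 and VGLL1. HES2, a transcriptional repressor of the HES family, fell in FaDu from 139, 174 and 97.6 to 56.6, 98.5 and 39.7 and held 97.1, 44.5 and 33.4 without and 73.2, 39.7 and 38.9 with HGF in Detroit 562. VGLL1, a cofactor of TEAD transcription factors, fell in FaDu from 348, 171 and 226 to 99.2, 92.5 and 144. In Detroit 562 it was far higher, at 5592, 5467 and 4641 without and 3989, 4288 and 3833 with HGF. The difference was 0.77 (SE 0.18, adjusted p = 0.016) and 0.38 without FaDu replicate 1. RTN2, SPTLC3, SLC2A6 and CDC42EP4 fell by 0.53, 0.48, 0.48 and 0.40 in FaDu and read 0.40, 0.27, 0.22 and 0.19 in Detroit 562.

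Genes under a mean of 50 normalized counts in both groups of a line were set apart. Of the called genes, 116 stayed under a mean of 50 normalized counts in both groups of FaDu only, 39 in both groups of Detroit 562 only, and 66 in both groups of both lines. S1PR1, a receptor for sphingosine-1-phosphate, went from 5.66, 2.17 and 11.8 to 55.4, 21.6 and 96.1 in Detroit 562 and had 3.80, 10.0 and 4.69 without and 1.85, 10.1 and 1.94 with HGF in FaDu. RASGRF2, a nucleotide exchange factor of RAS, and PLCB2, a phospholipase C, rose by 2.13 and 1.35 in Detroit 562. S1PR1, RASGRF2 and PLCB2 averaged 6.56, 13.1 and 25.0 in untreated Detroit 562. They reached 50 there only with HGF, so that their place here depends in part on the change itself. CLIC5, an intracellular chloride channel, fell in Detroit 562 from 219.6, 216 and 241 to 53.4, 73.8 and 75.4 and was at 0.95, 3.01 and 2.82 without and 4.64, 5.03 and 5.80 with HGF in FaDu. Differences of RASGRF2, PLCB2 and CLIC5 passed without the block too, and a fitted fold change at a few counts depends on the prior count.

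**Figure D4:**
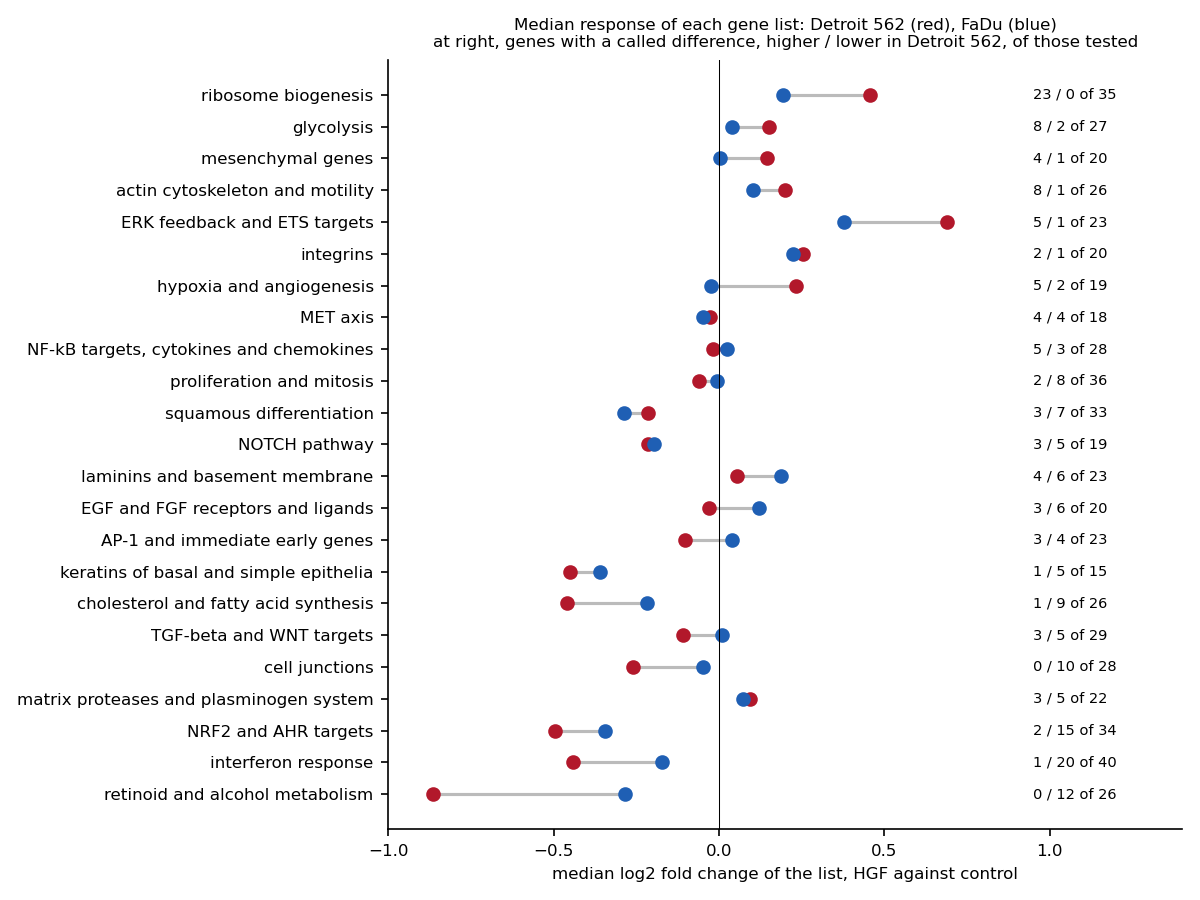
Median log2 fold change of each gene list in Detroit 562 (red) and FaDu (blue), ordered by the median difference. The lists of cell type markers are left out. The number of genes called higher and lower in Detroit 562 is given at right. Ribosome biogenesis, at the top, has 23 genes higher and 0 lower of 35, and retinoid metabolism, at the bottom, 0 higher and 12 lower of 26. The medians of the NOTCH pathway, at -0.216 and -0.197, nearly coincide. For squamous differentiation, hypoxia and angiogenesis, matrix proteases and the MET axis, the median of the differences was negative although the Detroit 562 median lay above that of FaDu.

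Of 40 tested interferon-stimulated genes, 20 responded lower and 1 higher in Detroit 562, where 8.98% and 10.1% of all genes did. The median fold change was -0.441 in Detroit 562 and -0.171 in FaDu. In Detroit 562, 22 genes were called down and 0 up, and in FaDu 9 down and 1 up. The count of genes lower in Detroit 562 was 15 to 19 when a replicate was left out, 18 with DESeq2 and 0 without the block.

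The guanylate-binding proteins GBP1, GBP2 and GBP4, GTPases of cell-autonomous immunity, fell in both lines and more so in Detroit 562. GBP4 went from 279, 241 and 131 to 44.5, 56.8 and 29.2 there and from 353, 340.5 and 389.6 to 232, 276 and 234 in FaDu, a difference of -1.77 (SE 0.20, adjusted p = 0.00013). GBP1 went from 270.5, 225 and 210 to 101, 106 and 85.2 and from 1537, 1051 and 1057 to 782, 849.7 and 661, with a difference of -0.62 (SE 0.18, adjusted p = 0.034) that was not called without Detroit 562 replicate 1. IRF1, the transcription factor that drives many of these genes, fell by 1.01 in Detroit 562 and had -0.19 in FaDu (difference -0.82, SE 0.076, adjusted p = 4.1e-05).

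Genes of the antiviral IFIT family and OASL had fold changes of opposite sign in the lines, though only one of the pair passed its threshold. IFIT3 (-0.59 and 0.24), IFIT1 (-0.46 and 0.20) and OASL (-0.41 and 0.20) fell in Detroit 562, and IFIT2 (-0.19 and 0.45) rose in FaDu. OAS2 and MX1 fell by 1.23 and 1.08 in Detroit 562 and had -0.24 and -0.34 in FaDu. IFI44L was the exception, with -0.11 and -0.54 (difference 0.42, SE 0.15, adjusted p = 0.078). Untreated Detroit 562 held 300.3 normalized counts of IFIT1 on average against 2014 in FaDu, and 448 of the ubiquitin-like modifier ISG15 against 4310. No difference was called for the chemokine CXCL10 (-1.93 and -2.08).

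The element that many of these promoters share is the interferon-stimulated response element (ISRE). Promoters were taken from RefSeq (GRCh38.p14, 1 per symbol) and the 250 bases before the start were searched on both strands for the element, spelled TTTC, any 2 bases and TTTC. The element was found in 14 of 30 matched interferon promoters (46.7%), in 3.05% of all 27305 promoters and in 2.36% of those of tested genes. It was found in 3.61% of promoters of genes lower and in 1.77% of those higher in Detroit 562. Windows around the element are given for genes with a called difference, on the strand of the gene and with 20 bases on either side where the searched window allows it, the element in capitals. Where it lies on the opposite strand the capitals read GAAA, any 2 bases and GAAA.
IFIT1 (chr10:89392487-89392549, plus strand): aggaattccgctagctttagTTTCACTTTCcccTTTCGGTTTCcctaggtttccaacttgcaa
IFIT3 (chr10:89327855-89327904, plus strand): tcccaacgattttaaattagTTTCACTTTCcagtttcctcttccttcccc
GBP1 (chr1:89065306-89065355, minus strand): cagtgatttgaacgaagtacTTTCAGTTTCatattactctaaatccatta
BST2 (chr19:17405725-17405780, minus strand): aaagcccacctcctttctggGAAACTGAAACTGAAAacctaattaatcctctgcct
ISG15 (chr1:1013364-1013419, plus strand): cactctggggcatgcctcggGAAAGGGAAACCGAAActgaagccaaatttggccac
IFI44L (chr1:78620264-78620313, plus strand): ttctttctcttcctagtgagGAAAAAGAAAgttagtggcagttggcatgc
In IFIT1 a pair of elements lies in tandem, and in BST2 and ISG15 overlapping matches run together. IFIT3 holds a further match upstream. IFI44L, whose response went the other way, carries the element as well, and the same stretch recurs within its promoter at chr1:78620355-78620404, plus strand. A match of letters is a description and not a binding site.

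All 35 tested genes of ribosome biogenesis had a higher fitted response in Detroit 562, and for 23 of them the difference was called (65.7% of the list, against 10.1% of all genes in this direction). The median fold change was 0.456 in Detroit 562 and 0.194 in FaDu, so that the differences were small, with a median of 0.274. In Detroit 562, 24 were called up and 0 down, and in FaDu 0 were called in either direction. The number called was 11 to 29 when a replicate was left out, lowest without Detroit 562 replicate 1 or FaDu replicate 3, 21 with DESeq2 and 18 with its size factors in edgeR, and 0 without the block.

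RRP9, a protein of the U3 particle that processes ribosomal RNA, went from 1159, 1261 and 1764 to 2425, 2135 and 2470 in Detroit 562 and from 1445, 1341 and 1643 to 1930, 1510 and 1891 in FaDu. Each HGF library lay above its control, and those of Detroit 562 did so by more (difference 0.50, SE 0.12, adjusted p = 0.014). The helicase DDX21 went from 10530, 12253 and 16395 to 17090, 19103 and 23036 in Detroit 562 and from 20463, 19405 and 23219 to 26183, 22925 and 24905 in FaDu, with a difference of 0.38 (SE 0.075, adjusted p = 0.0056). BOP1 (0.69 and 0.21) and NOP16 (0.59 and 0.16) act in the assembly of the large ribosomal subunit. POLR1B (0.55 and 0.21) is a subunit of RNA polymerase I, FBL (0.38 and 0.048) the methyltransferase fibrillarin, and NPM1 (0.45 and 0.19) the nucleolar chaperone nucleophosmin.

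**Figure D5:**
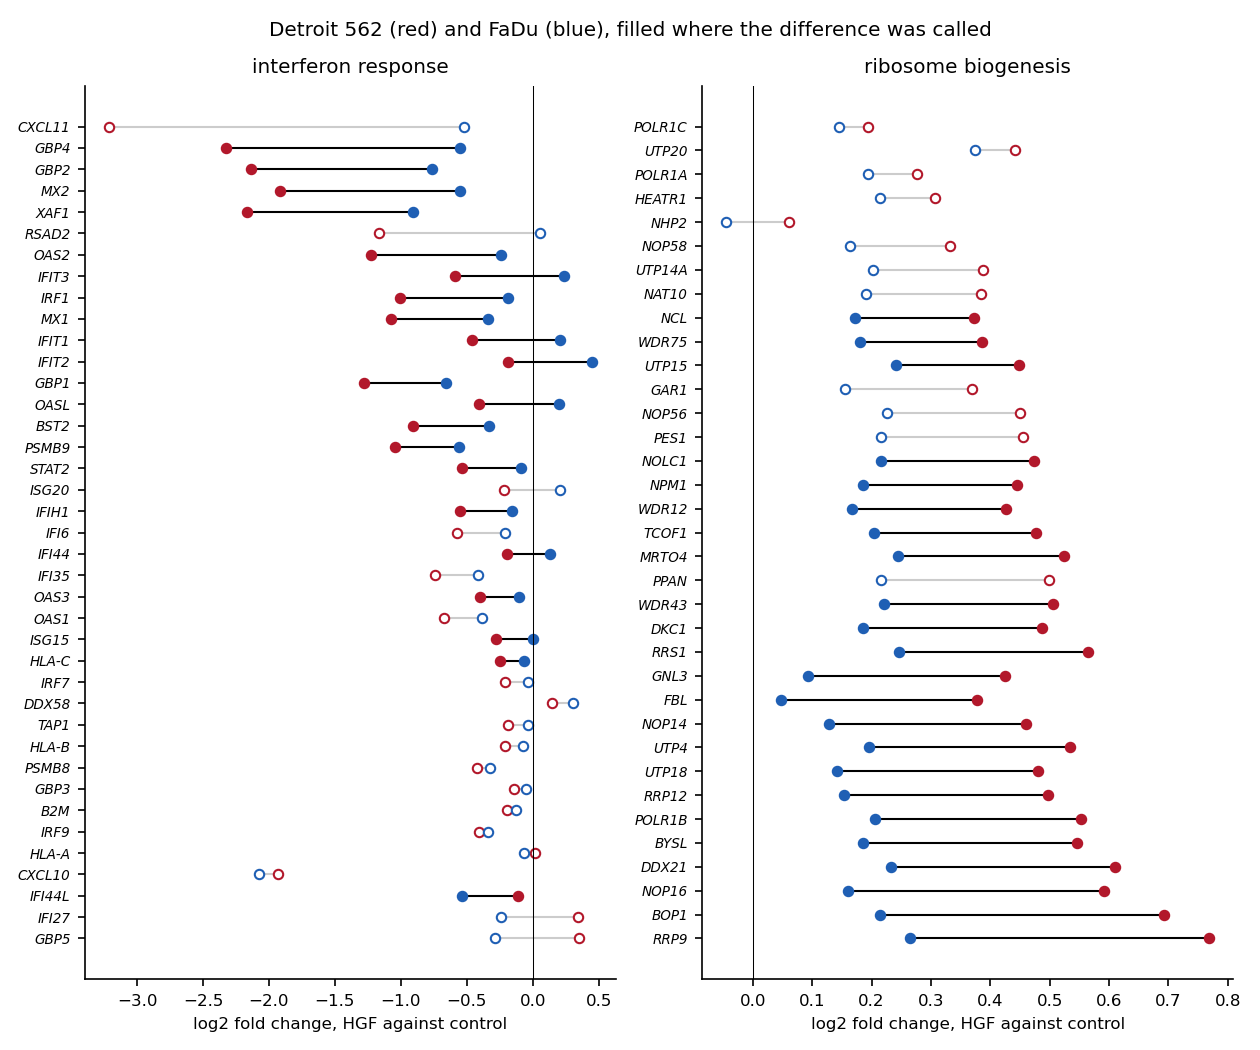
Log2 fold changes of HGF against control of tested interferon genes (left) and ribosome biogenesis genes (right), with Detroit 562 in red and FaDu in blue and filled symbols where the difference was called. In the interferon panel most red symbols lie to the left of the blue ones, at lower fold changes, with IFI44L as the called exception. In the ribosome biogenesis panel all 35 red symbols lie to the right of the blue ones, which do not exceed 0.4.

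The core ETS motif CCGGAAG, in its whole length on either strand, was found in 9 of 29 matched ribosome biogenesis promoters (31%), in 8.79% of all promoters and in 14.2% of those of tested genes. Among genes with a called difference it was in 18.5% of promoters of those higher in Detroit 562 and in 8.19% of those lower. In the list of ERK feedback genes and ETS targets it was found in 0 of 17 matched promoters. Windows of 4 members with a called difference are shown, with the motif in capitals.
RRP9 (chr3:51942109-51942154, minus strand): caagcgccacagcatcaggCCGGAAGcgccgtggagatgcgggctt
NOP16 (chr5:176388599-176388637, minus strand): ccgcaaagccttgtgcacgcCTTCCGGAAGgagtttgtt
DDX21 (chr10:68956090-68956136, plus strand): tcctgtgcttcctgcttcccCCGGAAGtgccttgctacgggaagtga
POLR1B (chr2:112541890-112541936, plus strand): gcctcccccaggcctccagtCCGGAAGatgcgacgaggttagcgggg
In NOP16 the motif and its reverse complement CTTCCGG overlap. The E-box CACGTG was found in 5 of the 29 ribosome biogenesis promoters (17.2%), in 6.33% of all and in 8.37% of those of tested genes. The antioxidant element TGACNNNGC was in 9 of 28 NRF2 and AHR promoters (32.1%), 11% of all and 11.9% of those of tested genes. The AP-1 site TGANTCA was in 3 of 11 promoters of matrix proteases and the plasminogen system (27.3%), 6.74% of all and 4.57% of those of tested genes. Promoters of genes higher and lower in Detroit 562 held the E-box in 9.62% and 7.5%. The antioxidant element was in 13.8% and 9.55% of them and the AP-1 site in 4.73% and 4.87%. Genes used in these counts are those of the lists, and the shares are descriptions.

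Proliferation genes had median fold changes of -0.0615 and -0.00558. Of 36, 8 responded lower and 2 higher in Detroit 562, where 8.98% and 10.1% of all genes did, and 3 were lower without Detroit 562 replicate 1 or FaDu replicate 2. Among those lower were the mitotic kinesin KIF20A (-0.46 and -0.10), the centromere protein CENPF (-0.46 and 0.025) and the proliferation marker MKI67 (-0.22 and 0.21), which was called in 3 of the 6 fits that leave out a replicate. CDKN1A, the cell cycle inhibitor p21, rose in Detroit 562 by 0.57 with -0.065 in FaDu.

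Genes of glycolysis had small differences, 8 of 27 higher and 2 lower in Detroit 562 (37%, against 19.1% of all genes). The number higher was 3 without Detroit 562 replicate 1 or FaDu replicate 2, 4 without FaDu replicate 3, 5 without Detroit 562 replicate 2, 11 without Detroit 562 replicate 3, and 0 without the block. HK2, the hexokinase that commits glucose, went from 1766, 2006 and 2581 to 2906, 3006 and 4086 in Detroit 562 and from 2083, 2886 and 2692 to 2963, 3598 and 3465 in FaDu. Each HGF library lay above its control in both lines, with fold changes of 0.66 (SE 0.052) and 0.40 (SE 0.051). FaDu fell just short of the minimum fold change of 0.4 (adjusted p = 0.00024), and the difference between the lines was 0.26 (SE 0.073, adjusted p = 0.033), not called without FaDu replicate 2 or 3. LDHA, the lactate dehydrogenase subunit, read 30420, 32157 and 38511 in control and 43904, 42509 and 50001 in HGF-treated Detroit 562, against 33470, 34196 and 37297 without and 43693, 38877 and 38433 with HGF in FaDu. Its difference of 0.23 (SE 0.08, adjusted p = 0.074) was not called without Detroit 562 replicate 1 or 2 or without FaDu replicate 2 or 3. The glycolytic enzymes PGK1 (0.30 and 0.0054) and PFKP (0.45 and 0.16) and the lactate transporter SLC16A1 (0.46 and 0.16) were also higher in Detroit 562. The regulatory kinases PFKFB2 and PFKFB3 went the other way (-0.28 and 0.19, and -0.34 and 0.058).

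Hypoxia and angiogenesis genes were split, 5 of 19 higher and 2 lower in Detroit 562, against 10.1% and 8.98% of all genes. BNIP3, a mitophagy receptor, rose in Detroit 562 from 387, 425 and 586 to 866, 769.7 and 1336 and read 568, 885 and 664 without and 720.5, 944 and 873 with HGF in FaDu (difference 0.80, SE 0.11, adjusted p = 0.00051). DDIT4, an inhibitor of mTOR signaling, had -0.95 and -0.17. VEGFA, the vascular growth factor, responded more in FaDu (0.23 and 0.59), and ESM1, a proteoglycan of activated endothelium, rose in both lines without a called difference (3.97 and 3.82).

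Of 26 genes of cholesterol and fatty acid synthesis, 9 responded lower and 1 higher in Detroit 562, where 8.98% and 10.1% of all genes did. The number lower was 5 without FaDu replicate 2, 6 without Detroit 562 replicate 1 or FaDu replicate 3, 13 without FaDu replicate 1 and 0 without the block. In Detroit 562 15 of them fell, and in FaDu 5. SREBF1, the master regulator of lipogenesis, fell from 11214, 8805 and 5349 to 5098, 4791 and 2529 in Detroit 562 and held 8684, 9428 and 6457 without and 7262, 8371 and 5866 with HGF in FaDu. The groups did not overlap in ratio, and the difference had a small error (-0.84, SE 0.071, adjusted p = 2.4e-05). Its relative SREBF2 (-0.75 and -0.32) and the desaturase SCD (-0.62 and -0.16) were also lower in Detroit 562.

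Of 28 junction genes, 10 responded lower and 0 higher in Detroit 562, where 8.98% and 10.1% of all genes did. The number lower was 5 without Detroit 562 replicate 1 and 6 without FaDu replicate 2, and 11 lower stood beside 2 higher without FaDu replicate 1. The 10 included the desmosomal genes DSG3 (-0.74 and -0.27), DSC2 (-0.50 and -0.15), DSP (-0.38 and -0.0082) and JUP (-0.45 and -0.17) and the tight junction gene CLDN4 (-0.77 and -0.38). GJB2 counts among the 10 through its rise in FaDu. For E-cadherin (CDH1, -0.49 and -0.25) no difference was called.

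Of 33 tested genes of squamous differentiation, 7 responded lower and 3 higher in Detroit 562 (30.3%, against 19.1% of all genes, with the number higher near the 10.1% of all genes in that direction). The 3 higher became 5 without Detroit 562 replicate 2. ZNF750, a regulator of terminal differentiation, fell from 143, 130.4 and 61.4 to 34.6, 29.5 and 9.73 in Detroit 562 and from 472, 385 and 378 to 276, 342 and 203 in FaDu. TGM1, the transglutaminase of the cornified envelope, fell from 904, 766 and 418 to 199.9, 217 and 159 and from 1159, 1372 and 591 to 689, 994 and 362, with a difference of -1.20 (SE 0.15, adjusted p = 0.00036). The kallikrein KLK10 was an exception and rose in Detroit 562 by 0.81. KRT15, a keratin of basal cells, fell in both lines, from 7194, 6045 and 3013 to 1406, 1428 and 565 in Detroit 562 and from 9507, 8941 and 4600 to 6279, 7756 and 2522 in FaDu, a difference of -1.73 (SE 0.14, adjusted p = 2.4e-05). TP63, the master factor of squamous epithelium, had -0.37 and 0.10. KRT17, a keratin of activated epidermis, was the one keratin of 15 with a higher response in Detroit 562 (0.089 and -0.36), and 5 were lower (40% called), which became 3 higher and 3 lower without FaDu replicate 2.

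Genes of matrix adhesion and the cytoskeleton differed in both directions. Of 20 integrins, 2 responded higher and 1 lower in Detroit 562 (15%, against 19.1% of all genes). ITGA5, the fibronectin receptor subunit, went from 878, 879 and 1258 to 1861, 1749 and 2732 in Detroit 562 and from 902, 1482 and 1276 to 1199, 1760 and 1799 in FaDu (difference 0.68, SE 0.078, adjusted p = 0.00017), whereas ITGB5 rose by 0.72 and 0.89 without a called difference. Laminins and basement membrane genes gave 4 higher and 6 lower of 23 (43.5%), with 2 higher without FaDu replicate 2 and 3 lower without FaDu replicate 3. Fibronectin (FN1), among those lower, had -0.31 and 0.31. Of 26 genes of actin and motility, 8 were higher and 1 lower, against 10.1% and 8.98% of all genes. The 8 included transgelin (TAGLN, 1.19 and 0.56), fascin (FSCN1, 1.00 and 0.42) and alpha-actinin (ACTN1, 0.58 and 0.16). MSN, abundant in FaDu, was nearly absent from Detroit 562, and its difference rested on Detroit 562 replicate 3 (1.11, and -0.034 without it).

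Mesenchymal genes were called for 5 of 20, 4 higher and 1 lower in Detroit 562, a share of 25% that is close to the 19.1% of all genes. The transcription factors SNAI2 and TWIST2 rose by 0.54 and 0.82 in Detroit 562 and read 0.20 and 0.13 in FaDu. The collagen COL5A2 fell in Detroit 562 from 33131, 28604 and 17421 to 14226, 15458 and 7619, while FaDu held no more than 70.1 counts on average. The fibroblast marker genes COL1A1 and COL1A2 fell in Detroit 562 as well, by 0.77 and 1.10, without a called difference from FaDu. In FaDu, COL1A1 went from 267, 258 and 159 to 140, 177 and 135 normalized counts with HGF. COL1A2 did not exceed 5 counts there, so that its response could hardly be compared. Whether the fall of COL1A1 and COL1A2 bears on COL5A2 was not tested.

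Cytokines and NF-kB targets gave 5 higher and 3 lower of 28, against 10.1% and 8.98% of all genes, the number lower being near that share. The 5 became 3 without FaDu replicate 2. TNFAIP3, the feedback inhibitor A20, rose from 764, 1057 and 2379 to 2909, 2374 and 5641 in Detroit 562 and from 905, 1394 and 1349 to 1311, 1875 and 2468 in FaDu (difference 0.82, SE 0.16, adjusted p = 0.0055). IL1A and IL1B rose by 1.83 and 1.44 in Detroit 562 and had 0.47 and 0.14 in FaDu. The ratios of IL1A overlapped between the lines, and IL1B averaged only 7.93 normalized counts in control and 21.5 in HGF-treated Detroit 562. IL1A went from 33.0, 48.9 and 36.6 to 116, 65.8 and 254 in Detroit 562 and from 1098, 1646 and 1531 to 1564, 2135 and 2186 in FaDu, where it was far more abundant. The IL1A difference of 1.36 was 0.72 without Detroit 562 replicate 3. The neutrophil chemokine CXCL8 rose more in FaDu (0.30 and 1.06), on the same side as CXCL1. Both IL1A and CXCL8 hold the AP-1 site TGANTCA in their promoter, shown in capitals with 20 bases on either side, for IL1A at the site nearest the start.
IL1A (chr2:112784429-112784475, minus strand): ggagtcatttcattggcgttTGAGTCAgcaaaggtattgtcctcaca
CXCL8 (chr4:73740412-73740458, plus strand): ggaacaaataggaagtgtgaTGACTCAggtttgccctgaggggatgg
Their responses differed between the lines in opposite directions, 1.36 and -0.77.

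NOTCH3, a receptor of juxtacrine signaling, fell from 5868, 5626 and 2897 to 1953, 2166 and 677 in Detroit 562 and from 7204, 7301 and 4439 to 3870, 5768 and 2543 in FaDu, a difference of -0.98 (SE 0.16, adjusted p = 0.0017). NOTCH1 (-0.12 and -0.49) was higher and the target HES1 (-0.57 and -0.17) lower in Detroit 562, and of 19 NOTCH genes 3 were higher and 5 lower in Detroit 562 (42.1%, against 19.1% of all genes). Without FaDu replicate 2 the NOTCH counts were 5 higher and 2 lower, and without FaDu replicate 3 they were 1 and 3. Of 29 TGF-beta and WNT genes, 3 were higher, near the 10.1% of all genes, and 5 lower. The 3 became 1 without FaDu replicate 2 or 3. The ligands WNT5A and WNT10A fell by 1.62 and 1.37 in Detroit 562 and had -0.49 and -0.63 in FaDu, and WNT7A rose by 1.07 and 0.47.

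TNFAIP2, JDP2 and SLC6A9, which the study also followed, fell in both lines. TNFAIP2 fell by 0.73 and 0.65 and JDP2, an AP-1 repressor, by 0.62 and 0.47, with differences of -0.085 (SE 0.10) and -0.15 (SE 0.11) that were not called. The glycine transporter SLC6A9 went from 1050, 998 and 951 to 506, 485 and 382 in Detroit 562 and from 379.8, 485 and 387 to 261, 380.1 and 218 in FaDu, and by more in Detroit 562 (difference -0.57, SE 0.12, adjusted p = 0.009).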

How the data were processed

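Libraries of polyadenylated RNA were prepared with a strand-specific kit and sequenced by the authors, who trimmed reads with cutadapt 1.16 and aligned them with STAR 2.5.2b to GRCh38.p12, with bcl2fastq 2.20.0.422, bedtools and DESeq2 1.22.1 also named in the processing notes. The deposited values are raw counts per GENCODE gene in 18 libraries, and a read was counted for every gene it overlapped on its strand, so that 2498 overlapping genes can share reads. Groups came from the sample titles, with 3 replicates each, and the experiment was described as repeated. P-values measure the spread between these repeats of single cell lines. Totals were 35304770 to 44003970 counts per library, but counting error depends on the count of the gene itself. RNASE7 and RTN2, with means near the minimum of 50 in one line, had differences with an SE of 0.28 and 0.26.

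The 19901 genes were filtered by edgeR's default on the 6 groups, which kept 15475, and scaled by TMM. The 18 pseudoautosomal duplicates were told apart by identifier. A quasi-likelihood model (edgeR 4.0.16, R 4.3.3) held 1 term per line and replicate number and 1 HGF effect per line, and the difference of the Detroit 562 and FaDu effects was tested with Benjamini-Hochberg adjustment over all genes. Differences with an adjusted p below 0.1 were called. Within a line, a change had in addition to reach 0.4 on the log2 scale in either direction. Log2 ratios of same-numbered libraries used a prior of 0.5 counts, and an exact two-sided permutation test of 3 against 3 ratios cannot go below p = 0.1. The replicate block was part of the comparison as it was defined. Each HGF library deviated from its group in parallel with the control library of the same number. The pairing comes from the numbers in the titles. Over 13153 genes these deviations correlated by 0.323, 0.221 and 0.5201 in Detroit 562 and by 0.4397, 0.5017 and 0.6104 in FaDu. Some libraries of unlike number also correlated, in Detroit 562 control 1 with HGF 2 (0.2746) and control 2 with HGF 1 (0.1709). In FaDu, control 1 correlated with HGF 2 by 0.1518, and the other unlike pairs were negative in both lines. The deviations thus do not clearly part replicates 1 and 2 of Detroit 562.

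Named were the genes with opposite calls, and per class up to 6 genes with the largest difference. They were taken from those with ratios that did not overlap and at least 50 normalized counts on average in a group of each line. Up to 3 genes per direction under 50 counts in both groups of one line were also named. To these came up to 4 called members of each of 27 gene lists and the genes the study itself followed. DUSP6, IER3, GJB2 and ITGB5 were added from an earlier analysis of these data. This gave 136 genes, of which 130 had a called difference. Other list members, given by their fold changes alone, were chosen after their values were seen. The members and lists were chosen with earlier results of these data known. Promoters (250 bases before the start) came from RefSeq for GRCh38.p14 and matched 11487 of 15462 tested symbols. Alternatives used limma 3.58.1, DESeq2 1.42.0, other scaling factors and filters, and the omission of each replicate, and overlaps were found with GenomicRanges 1.54.1. The steps were tested on simulated data. With the block, 15.2% of called differences were false at a simulated replicate SD of 0.3 on the log2 scale, and 8.5% at an SD of 0. The SCC-9 response and some genes are not reported here.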

Additional observations from a re-analysis of the deposited data

Results flagged for a closer look

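Genes are listed here because the response to HGF differed between Detroit 562 and FaDu by the test of the difference itself (edgeR, replicate block), with the log2 difference, Detroit 562 minus FaDu, in parentheses. Differences were called by an adjusted p below 0.1 over all genes tested, as were those of 19.1% of all genes.

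Opposite responses were called for STC1 (-2.11), PLEKHG4B (-1.79), NANOS1 (1.31), CXCL1 (-1.13), SERPINA1 (-1.1) and AHNAK2 (-0.929). The rise was larger in Detroit 562 for SLC26A7 (2.53), MMP1 (2.19), HOXB9 (1.39), RNASE7 (1.35) and CHST11 (1.33), and the fall for ADH1B (-2.24), ADH1C (-2.21), SERPINB13 (-2.01), CYP2W1 (-1.97), PRODH (-1.82) and DEPTOR (-1.8). FaDu had the larger rise for GJB2 (-1.06), HDAC9 (-0.995), CGNL1 (-0.92), AKAP2 (-0.915), COL12A1 (-0.854) and RASL11A (-0.85) and the larger fall for RTN2 (0.924), HES2 (0.88), VGLL1 (0.766), SPTLC3 (0.748), SLC2A6 (0.692) and CDC42EP4 (0.596).

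Genes under a mean of 50 normalized counts in both groups of one line were S1PR1 (3.56), RASGRF2 (2.23), PLCB2 (2.03) and CLIC5 (-2.91). The others named from this class were SERPINB10 (-2.5), SERPINB2 (-2.4), MMP9 (-2.02), MX2 (-1.36) and LSMEM1 (-1.1). S1PR1, RASGRF2, PLCB2, MMP9 and LSMEM1 averaged under 50 in untreated cells of both lines. They reached 50 in the other line only with HGF, so that their place here depends in part on the change itself. Of the other genes the study followed, a difference was called for FGFR1 (1.13), FGFR3 (-0.366), GBP1 (-0.619), HK2 (0.259), LDHA (0.232) and SLC6A9 (-0.569). It was also called for IER3 (-0.62), which was taken from an earlier analysis of these data and not from the study. Without the replicate block, 8 of these differences remained, those of NANOS1, SLC26A7, MMP1, DEPTOR, GJB2, RASGRF2, PLCB2 and CLIC5. SLC26A7, HOXB9, ADH1B, ADH1C, AKAP2, PLCB2, SERPINB10, SERPINB2 and LSMEM1 overlap other genes on their strand, so that part of their reads may belong to the neighbor.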

How the results depend on the processing

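Without the replicate block, the genes whose response differed numbered 37 (16 higher, 21 lower in Detroit 562), those with opposite responses 0, and those called in FaDu 4, while 2766 were called in Detroit 562. Of 136 named genes, 122 then lost their call. The cause was not tested.

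Fitted on the 12 libraries of these lines alone, 1797 genes differed (784 higher, 1013 lower) and 7 were opposite. Requiring a difference of at least 0.4 left 1223 (417 higher, 806 lower), and an adjusted p below 0.05 with a difference of at least 1 left 194 (54 higher, 140 lower). Leaving out a replicate gave 1833 to 3323 genes that differed, with the lowest count without FaDu replicate 3. Opposite responses numbered 5 with DESeq2, 7 with limma voom and 60 with no minimum fold change, and 5 (without FaDu replicate 1) to 19 (without FaDu replicate 2) when a replicate was left out, of which 4 to 8 were among the 11 reported. With no minimum fold change, 8291 genes were called in Detroit 562 and 2697 in FaDu. The counts within a line were 2880 to 3423 in Detroit 562 and 454 (without FaDu replicate 1) to 1059 in FaDu when a replicate was left out.

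With DESeq2's size factors, 1274 genes were higher and 1504 lower, so that the small excess of higher responses turned, and the median difference of all genes moved by -0.0158. Leaving out 1 replicate turned the sign of 5 named differences, none of which was called except that of MSN. MET ranged from -0.09348 to 0.03003 and was at 0.01528 without FaDu replicate 3. DUSP6 ranged from -0.08183 to 0.2145, JDP2 from -0.3257 to 0.000653 and TNFAIP2 from -0.1876 to 0.02335, each turning without FaDu replicate 2. MSN ranged from -0.03427 without Detroit 562 replicate 3 to 1.55. Apart from the block and these omissions, no named difference changed sign under the other alternatives. Genes under about 50 counts in a line, where a single library can set the fold change, were the least certain. SERPINB10 and SERPINB2 were at -1.71 and -1.46 without FaDu replicate 3, with adjusted p of 0.395 and 0.421. The difference of MX2 was called in 1 and that of LSMEM1 in 2 of the 6 fits that leave out a replicate.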
